A study of Mus musculus with 2 samples.

Results

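Complement genes were followed on 2 Affymetrix Mouse Genome 430 2.0 arrays of cultured mouse peritoneal macrophages, 1 array of untreated cells and 1 of cells given macrophage colony-stimulating factor (CSF1). The 9 genes chosen by name were those of the C1q chains (C1qa, C1qb, C1qc), C3, factor B (Cfb), properdin (Cfp), the C1 inhibitor (Serping1) and the anaphylatoxin receptors (C3ar1, C5ar1), and every probe set annotated to exactly 1 of them was taken. This gave 14 probe sets of 8 genes, out of 45101 probe sets and 18194 genes with a symbol of their own; C3 was not analysed here. The rule that picks probe sets uses no measured value, although the genes were proposed with earlier results of these data known.

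The cells came from wild-type male C57BL6 mice, 8 weeks old, and had been drawn into the peritoneal cavity with thioglycolate, an irritant medium that recruits inflammatory macrophages. Both cultures were grown to 80% confluence in the same medium with serum and then kept for 12 h, the control without addition and the other with 100 ng/ml CSF1. CSF1 acts through its receptor Csf1r, a tyrosine kinase, to keep macrophages alive and growing, and the comparison asks how expression differed after 12 h of it. Since each group has 1 array, there is no replicate and no test between the groups, and precision is limited by the number of arrays. The labels do not say whether animals were pooled or whether both cultures came from the same animals.

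Complement is a cascade of plasma proteases that tags microbes and dying cells for uptake. C1q recognises its targets and starts the classical pathway through the proteases C1r and C1s, which the C1 inhibitor blocks. Factor B supplies the protease of the alternative pathway convertase and properdin stabilises that convertase. The fragments C3a and C5a released by the cascade act on myeloid cells through their receptors C3ar1 and C5ar1. Most plasma complement is made in the liver, but macrophages are a main source of C1q and properdin, and fibroblasts also make early components and the C1 inhibitor.

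Signals are in the deposited linear units. Background was taken as 181.6 units, below which lay 90% of the values of 134 probe sets for genes of tissues other than the one studied, and lower values were raised to it before a ratio was taken. A gene was counted as measured when its brightest probe set was above this level on at least 1 array, which held for 9992 genes and for all 8 complement members with a probe set, each on both arrays. Array medians were 101 and 91.6 units, and 37.2% and 36.3% of probe sets were above background on the control and CSF1 array. For the spiked-in hybridisation controls (18 probe sets) the log2 ratio averaged -0.29 ± 0.13 (SD), whereas the median over all measured genes was 0.01. The pooled SD between probe sets of 1 gene was 0.26 on the log2 scale over 3391 genes. It is the error available here and covers neither cultures nor animals.

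Among the members, the C5a receptor C5ar1 and the C1 inhibitor Serping1 stood highest on the CSF1 array relative to control, at 1.91-fold and 1.67-fold. Properdin (Cfp) was 1.40-fold higher on its brightest probe set. Factor B was 1.34-fold lower. The C1q chains and C3ar1 lay between 1.20-fold lower (C1qa) and 1.07-fold higher (C1qc). None of the 8 members reached 2-fold on the brightest probe set; the share of all measured genes past 2-fold was 0.641% on the higher side and 0.53% on the lower. At 1.5-fold, 2 of the 8 members were higher, against 4.83% of all measured genes, and 0 were lower, against 4.18%. The median log2 ratio over the 8 members was 0.02, beside 0.01 over all measured genes, with 4 members above and 4 below 0, where 50.8% and 49.2% of all measured genes lay. In bulk RNA, fewer cells of a type and less RNA per cell cannot be told apart.

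The promoters of both anaphylatoxin receptors and of a pair of C1q chains are printed because the receptors' ratios differed from each other, while C1qb and C1qc are neighbours in the genome and had ratios near 0. RefSeq promoter sequences (build GRCm38.p6, 250 bases before to 50 bases after the start of transcription) were at hand for these 4 genes and for Cfp. Sequences run 5′ to 3′ on the strand of the gene, and capitals mark matches to any of the motifs searched.
C5ar1, chr7:16259289-16259588, minus strand: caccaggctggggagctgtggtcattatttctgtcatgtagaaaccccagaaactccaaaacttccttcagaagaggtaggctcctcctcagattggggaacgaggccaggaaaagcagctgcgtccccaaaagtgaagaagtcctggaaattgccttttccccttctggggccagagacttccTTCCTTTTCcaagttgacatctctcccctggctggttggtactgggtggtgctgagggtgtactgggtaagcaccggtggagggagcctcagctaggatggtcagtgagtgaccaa
C3ar1, chr6:122856108-122856407, minus strand: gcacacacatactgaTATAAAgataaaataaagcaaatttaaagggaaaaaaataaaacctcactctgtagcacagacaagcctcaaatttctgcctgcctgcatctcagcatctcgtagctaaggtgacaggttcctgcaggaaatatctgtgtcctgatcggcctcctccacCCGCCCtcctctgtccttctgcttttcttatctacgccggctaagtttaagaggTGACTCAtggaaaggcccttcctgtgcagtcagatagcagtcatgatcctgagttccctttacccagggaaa
C1qb, chr4:136886151-136886450, minus strand: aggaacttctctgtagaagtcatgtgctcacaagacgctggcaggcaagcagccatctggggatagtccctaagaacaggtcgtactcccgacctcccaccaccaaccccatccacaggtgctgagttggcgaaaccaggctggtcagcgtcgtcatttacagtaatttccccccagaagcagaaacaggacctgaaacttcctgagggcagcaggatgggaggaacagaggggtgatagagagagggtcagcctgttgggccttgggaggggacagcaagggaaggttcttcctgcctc
C1qc, chr4:136892865-136893164, minus strand: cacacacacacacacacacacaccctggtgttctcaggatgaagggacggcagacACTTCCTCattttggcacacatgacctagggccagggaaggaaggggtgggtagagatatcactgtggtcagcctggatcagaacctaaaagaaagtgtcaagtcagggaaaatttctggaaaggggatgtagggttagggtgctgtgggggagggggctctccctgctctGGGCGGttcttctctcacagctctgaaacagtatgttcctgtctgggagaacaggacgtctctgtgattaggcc

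Both strands were searched for 9 motifs. These were the TATA box TATAAA, the core GAAANNGAA of the interferon-stimulated response element, the gamma-activated site TTCNNNGAA, a PU.1-type site GAGGAAGT, the AP-1 site TGANTCA, the E-box CACGTG of the MiT/TFE factors, the core GGANTTTCC of the NF-kB site, the C/EBP site TTGCNNAA and the GC box GGGCGG. Positions are those of the first base of the match, counted from the start of transcription. The C5ar1 window held the interferon element core on the opposite strand, printed as TTCCTTTTC at position -66. The longer form of that element, with a further A, was found in 0 of the 5 windows, beside 3.44% of all windows. The C3ar1 window held TATAAA at position -235, a GC box on the opposite strand at -76 and the AP-1 match TGACTCA at -22. The C1qc window held the PU.1-type site on the opposite strand at -195 and a GC box at -24. None of the 9 motifs was found in the windows of C1qb and Cfp, the last of which is not printed. Of 32851 RefSeq promoter windows of the same length, 8.56% held the interferon element core, 13.6% TATAAA, 35.7% the GC box, 7.81% the AP-1 site and 3.20% the PU.1-type site. A match describes letters and was not tested as a binding site.

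The C1q chains form 1 protein and their genes lie side by side on chromosome 4, in the order C1qb, C1qc, C1qa, with no other annotated gene between them. Signals are given in the order control, CSF1. C1qa had 11818 and 9811 units, a log2 ratio of -0.27. C1qb had 14715 and 13993 units on its brightest probe set, a log2 ratio of -0.07. C1qc had 16116 and 17306 units, a log2 ratio of 0.10. The CSF1 array was thus the lower for C1qa and C1qb and the higher for C1qc. The remaining C1qb probe sets, whose names mark them as possibly shared with other transcripts, had 13434 against 11743 units and 7542 against 7156 units. The mean log2 ratio of C1qb over 3 probe sets was -0.11 ± 0.07 (SD between probe sets). C1qa and C1qc have 1 probe set each and so no such error. The signs of C1qa and C1qb depended on the scaling, since centring on the spikes put them at 0.03 and 0.22, and quantile normalization and a loess correction put C1qb at 0.01 and 0.02. C1qc stayed above 0 under the 4 scalings tried.

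The alternative pathway members stood on opposite sides of 0. Cfb, the factor B gene, had 3573 and 2663 units on its only probe set, a log2 ratio of -0.42. Its ratio was between -0.45 and -0.13 under the scalings tried. Cfp, the properdin gene, had 4430 and 6200 units on its brightest probe set, a log2 ratio of 0.49. Its other probe set had 161 and 86.9 units, in the opposite order, and was not above background on either array, so no fold is given for it. Averaging both probe sets of Cfp, the dim one included, gave a log2 ratio of -0.20. The higher signal of Cfp on the CSF1 array therefore rests on 1 probe set.

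Serping1 encodes the C1 inhibitor, which inactivates C1r, C1s and the lectin pathway proteases. Its only probe set had 5110 units without and 8542 units with CSF1, a log2 ratio of 0.74. Of the 9992 measured genes, 238 had a higher ratio. Its log2 ratio lay between 0.74 and 1.04 under the scalings tried, the last with spike centring, which put the median of all genes at 0.29. Relative to that median Serping1 was then at 0.75.

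The anaphylatoxin receptors differed from each other in direction under the authors' scaling. C5ar1 had 1282 units without and 2449 units with CSF1 on its brightest probe set, a log2 ratio of 0.93. Its other probe set had 1064 and 2264 units, a log2 ratio of 1.09. Both probe sets were thus higher on the CSF1 array, by nearly the same ratio, and their mean was 1.01 ± 0.11 (SD between 2 probe sets), so that C5ar1 is just under 2-fold on the brightest probe set and just past it on the mean. Of all measured genes, 92, or 0.921%, had a higher ratio than that of its brightest probe set. C3ar1 had 20463 units without and 18348 units with CSF1, a log2 ratio of -0.16. Its other probe sets had 18901 against 16998 units and 15755 against 14723 units. All 3 were slightly lower on the CSF1 array as deposited, with a mean of -0.14 ± 0.03 (SD between 3 probe sets). The brightest was at -0.04 after quantile normalization, -0.03 after a loess correction and 0.14 with spike centring. The log2 ratios of the receptors' brightest probe sets differed by 1.09. The pooled SD of 0.26 between probe sets of a gene is that of a single ratio, not of a difference, and covers neither cultures nor animals.

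**Figure D1:**
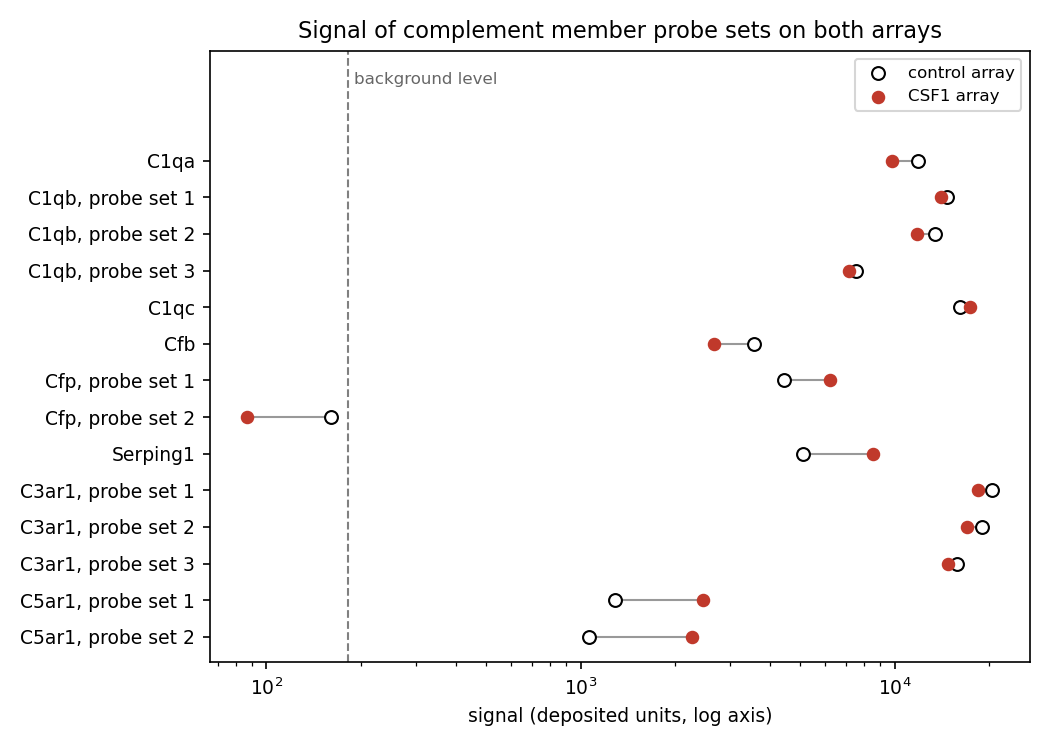
Signal of each of the 14 member probe sets on the control array (open circles) and the CSF1 array (filled circles), in deposited units on a log axis; probe set 1 is the brightest of a gene, and the dashed line is the background level of 181.6 units. Both C5ar1 probe sets and that of Serping1 are higher on the CSF1 array, the 3 of C3ar1 are close together on both, and the dim probe set of Cfp lies below the line on both arrays.

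The spread of ratios narrows as signal grows, so members were set beside genes of their own decile of mean level. Among the 1000 genes above background on both arrays in the brightest decile, log2 ratios ran from -0.34 at the 5th percentile to 0.32 at the 95th. C1qa, C1qb, C1qc and C3ar1 lay inside this range, and Serping1 and Cfp above it. The corresponding range was -0.43 to 0.48 for the decile that holds C5ar1, which lay above it, and -0.37 to 0.42 for that of Cfb, which lay below it. In all, 4 of 8 members were inside the range of their decile, 3 above and 1 below, where by definition 90% of the genes of a decile lie inside. Cfb, at -0.42, was just outside on its only probe set. Cfp was counted on its brightest probe set, and averaging both of its probe sets gave -0.20.

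**Figure D2:**
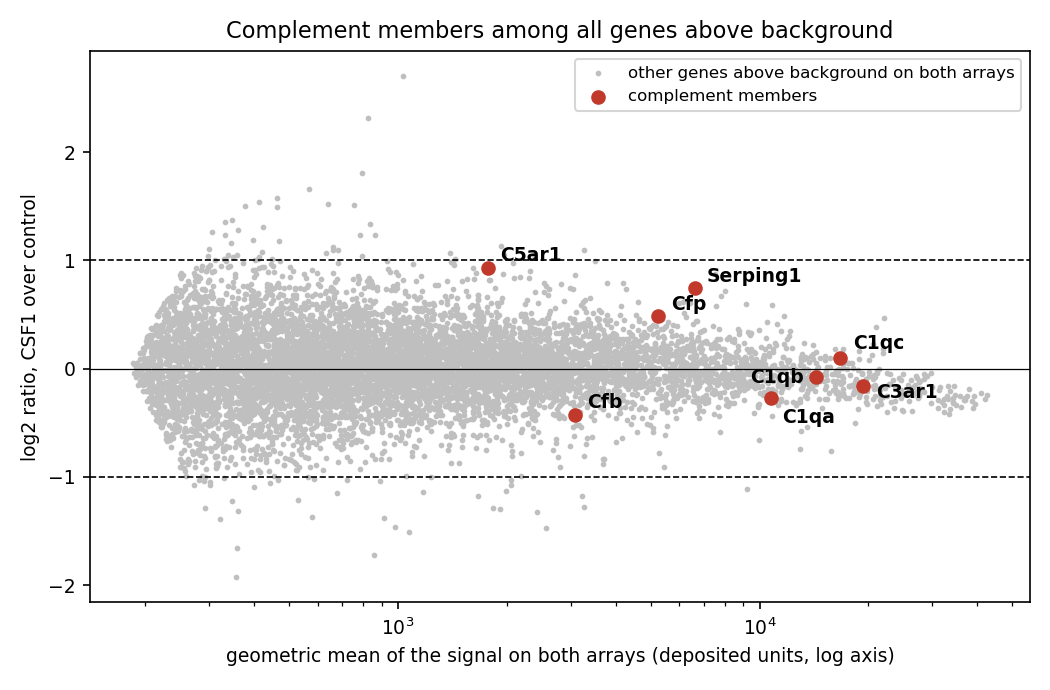
Log2 ratio of CSF1 over control against the geometric mean of the signal (deposited units, log axis) for each gene above background on both arrays (grey) and for the 8 complement members (red). Dashed lines mark 2-fold. C5ar1, at 0.93, lies just under the upper line. The C1q chains and C3ar1 lie at the bright end, between -0.27 (C1qa) and 0.10 (C1qc).

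Of 60 further complement genes listed by role, 50 had a probe set of their own, 26 were measured and 0 were past 2-fold in either direction, beside the 0.641% and 0.53% of all measured genes. Their median log2 ratio was 0.02, with 13 above and 13 below 0. The recognition molecules and early proteases had 5 of 11 measured, with 4 above 0 and a median of 0.18, the value of the protease gene Masp1. After quantile normalization 3 were above 0 and the median was 0.07. C1s1, the gene of the protease C1s and a target of the C1 inhibitor, had 1480 and 2907 units, a log2 ratio of 0.97, on a probe set that may be shared with other transcripts. C1ra, the gene of its partner C1r, had 805 and 856 units, a log2 ratio of 0.09. Ficolin A (Fcna), a recognition molecule of the lectin pathway made by macrophages, had 950 and 1282 units, a log2 ratio of 0.43. C2, the classical pathway counterpart of factor B, had a log2 ratio of -0.25 on its brightest probe set, which was 0.05 with spike centring. Its other probe sets disagreed, 1 at -0.10 and 1 at least 1.59-fold higher, from 155 units, below background, to 288 units. Masp1, a lectin pathway protease, had 0.18 on a probe set near background, at 198 and 225 units. Another of its probe sets had 305 and 144 units, at least 1.68-fold lower, and was above background on the control array only. After quantile normalization Masp1 was at -0.73, where another probe set of the gene became the brightest. C1s1 was thus the member of this group nearest to 2-fold. The brightest probe sets of Masp1 and C2, and below those of Clu, C1qbp, Arrb2 and Gnai2, also carry names that mark them as possibly shared. None of the 6 terminal pathway genes with a probe set (Hc, C6, C8a, C8b, C8g and C9), which build the membrane attack complex, was above background on either array.

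Genes that restrain complement on cell surfaces went both ways. Cd55, which speeds the decay of convertases, had 579 and 299 units, a log2 ratio of -0.95 on its brightest probe set, which was the only 1 of 3 above background on both arrays. The others disagreed with each other. One had 190 and 159 units, above background on the control array only. The last had 172 and 206 units, above it on the CSF1 array only. Cr1l, the rodent convertase regulator Crry, had 4555 and 3761 units, a log2 ratio of -0.28, which was 0.02 with spike centring. Cd59a, which blocks the membrane attack complex, was at 0.12 on its brightest probe set and 0.41 on its other, possibly shared, probe set. The thrombomodulin gene Thbd was at 0.09. Soluble regulators were mostly below background, with 2 of 8 measured. These were C1qbp, a mitochondrial protein that binds C1q globular heads, at 0.36, and clusterin (Clu), at -0.03 on its brightest probe set and 0.19 ± 0.17 (SD) over 4 probe sets.

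Other complement receptors were measured for 7 of 8 genes, with 5 below 0 and a median of -0.21, which was 0.09 with spike centring. The integrin subunits of complement receptors CR3 and CR4 were close together as deposited, Itgam at -0.21, Itgax at -0.22 and their shared partner Itgb2 at -0.20. Spike centring put them at 0.08, 0.07 and 0.10. Quantile normalization and a loess correction put Itgb2 at -0.07 and -0.06. The scavenger receptor Lrp1, which takes up C1q-tagged material with calreticulin, was at -0.51. Vsig4, the macrophage receptor for C3 fragments, was higher at 1127 and 1546 units, a log2 ratio of 0.46. Of 9 genes of signalling downstream of the anaphylatoxin receptors, 8 were measured, with 4 above and 4 below 0 and a median of 0.04. The largest ratio among them was that of the arrestin gene Arrb2, which ends receptor signalling, at 0.36 on its brightest probe set and 0.60 ± 0.34 (SD) over 2 probe sets. Pik3cg, the receptor-coupled phosphoinositide kinase, was at 0.23 and -0.47 on its 2 probe sets. The G protein subunits Gnai2 and Gnai3 were at -0.04 and -0.05 as deposited, and at 0.26 and 0.25 with spike centring. The other probe sets of Gnai2 and Gnai3, both possibly shared, were at -0.29 and 0.20 as deposited.

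**Figure D3:**
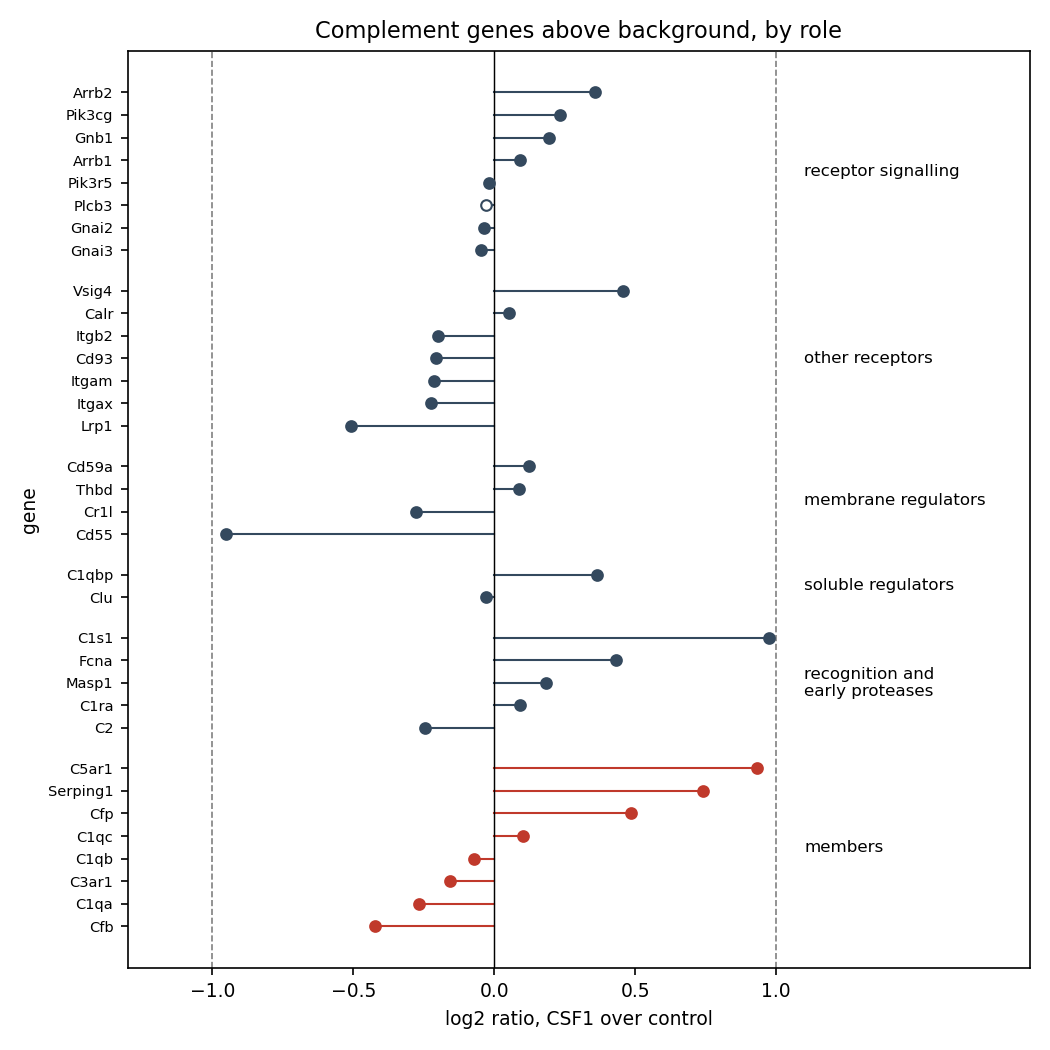
Log2 ratio of CSF1 over control for each measured complement gene, on its brightest probe set, grouped by role (members in red; an open circle marks Plcb3, above background on the control array only). Dashed lines mark 2-fold; C1s1 and C5ar1 come closest to it on the higher side and Cd55 on the lower side.

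The labelled cell type matched its markers. All 15 macrophage markers were above background on both arrays, with Csf1r at 23704 and 18697 units and Adgre1 (F4/80) at 10836 and 10007 units. Their median log2 ratio was -0.21, with 12 of 15 below 0, beside 49.2% of all measured genes. It was -0.05 after quantile normalization and -0.11 after a loess correction, each with 10 of 15 below 0, and 0.08 with spike centring. Itgam is in this list as well as among the complement receptors. Markers of fibroblasts and mesothelium were also present. Of 18, 15 were above background on at least 1 array, among them Col1a2 at 18991 and 22188 units, Col3a1 at 18382 and 24045 units and Dcn at 7447 and 11235 units, whereas Msln, Upk3b and Krt19 were not above background on either array. Their summed signal was 56587 units without and 70977 units with CSF1, and their median log2 ratio was 0.30, with 12 above 0. Serping1 and C1s1, which fibroblasts also express, were higher on the same array. Other early genes of the cascade did not follow them, with C1ra at 0.09, C2 at -0.25 and Cfb at -0.42. The part of the fibroblast and mesothelial difference in the ratios of these genes was not tested. Neutrophil markers, which bear on C5ar1 since neutrophils carry it, had 3 of 10 measured, with Mmp8 at -1.07, Csf3r at -1.04 and S100a8 at 0.18. The other 7, S100a9, Cxcr2, Ltf, Camp, Ngp, Mpo and Elane, were not above background on either array. The summed signal of the list was 9462 and 7931 units. The part of neutrophils in the C5ar1 ratio was not tested. Markers of T and NK cells were measured for 6 of 9 genes, with 5 below 0 and summed signals of 3344 and 2076 units. Gzma, a granule protease of cytotoxic lymphocytes, had 1554 and 472 units, a log2 ratio of -1.72, and the perforin gene Prf1 was at -0.81. The other measured genes of this list were Cd8a at -0.18, Cd3g and Cd2 each at -0.04, and Cd3d at 0.35. The median log2 ratio of the list was -0.11, which was 0.18 with spike centring. The measured markers of eosinophils and mast cells (3 of 11) and of dendritic cells (3 of 7) were all below 0. Their medians were -0.42 and -0.23, which were -0.02 and 0.07 with spike centring. The former were the mast cell genes Cpa3, Tpsb2 and Cma1. The eosinophil genes Prg2, Epx, Siglecf, Ccr3 and Il5ra were not above background on either array. The dendritic genes were Zbtb46, Fscn1 and Itgax, the last of which is also among the complement receptors. B cell markers (3 of 8) and endothelial markers (3 of 8) each had 1 above and 2 below 0. The part of these lists in the complement ratios was not tested.

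Interferon-stimulated genes were compared because Serping1 and Cfb are also induced by interferons. Of 31 with a probe set, 30 were measured, with 25 above 0, 2 at least 2-fold higher (Cxcl9 and Cxcl10), 0 at least 2-fold lower and a median of 0.19. Over all measured genes the corresponding shares were 50.8% above 0, 0.641% past 2-fold higher and 0.53% past 2-fold lower. Single genes of the list ran from -0.39 (Oas2) to 1.50 (Cxcl9), with Ifit3, an antiviral gene, at 0.75. Serping1 was at 0.74 and Cfb at -0.42. With no replicates, these differences could not be tested.

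**Figure D4:**
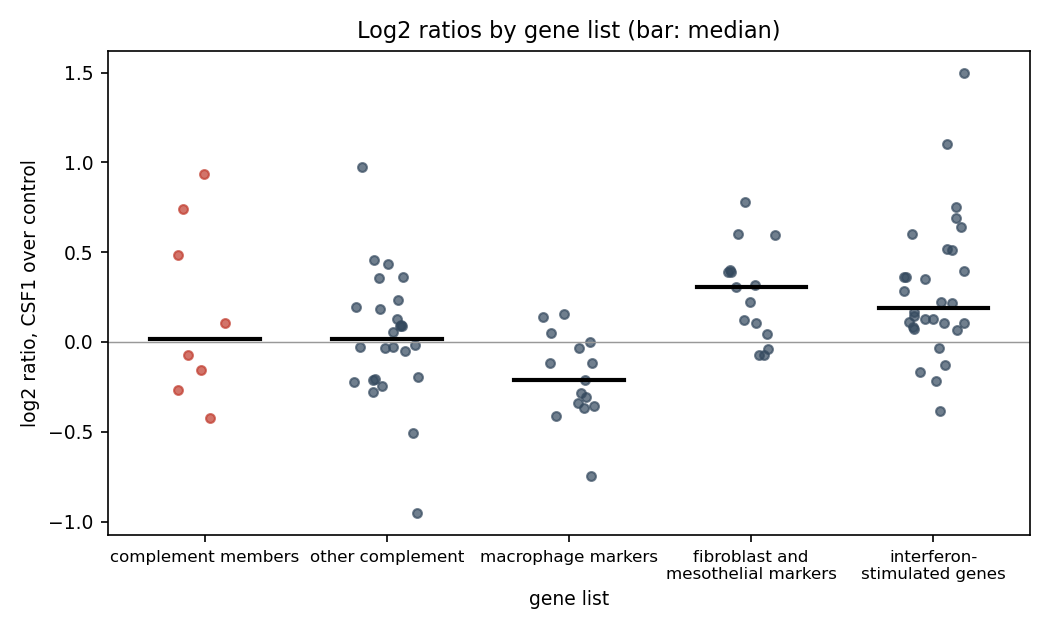
Log2 ratio of CSF1 over control for each measured gene of 5 lists; each point is a gene and the bar is the list's median. Complement members are spread on both sides of 0 with a median of 0.02, macrophage markers have a median of -0.21, fibroblast and mesothelial markers 0.30 and interferon-stimulated genes 0.19.

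**Figure D5:**
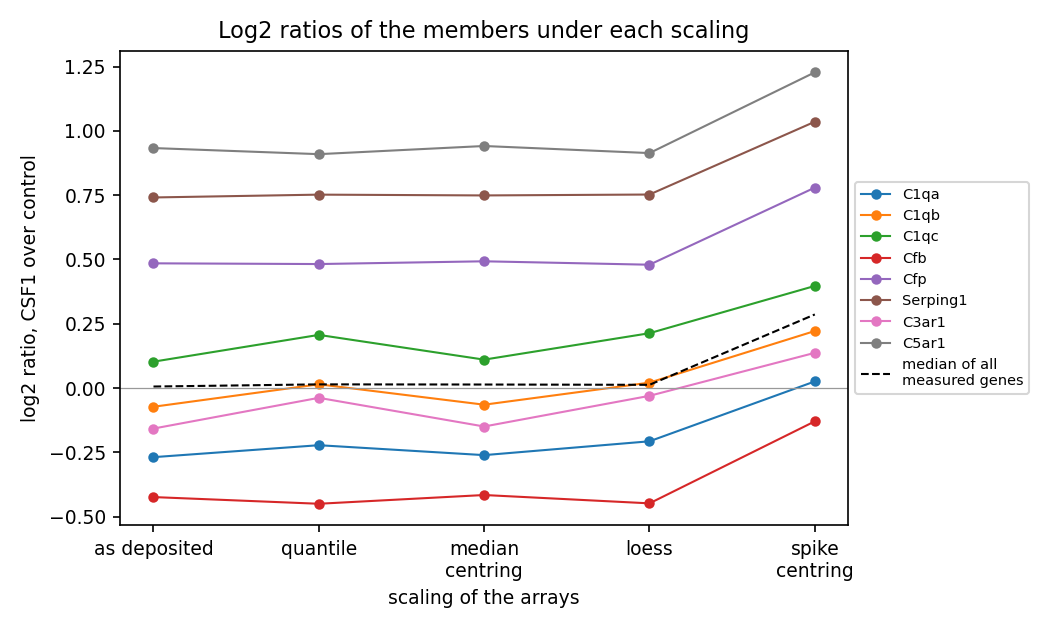
Log2 ratio of the 8 members as deposited and under 4 other scalings of the arrays, with the median of all measured genes as a dashed line. C5ar1, Serping1, Cfp and C1qc stay above 0 and Cfb below it under each, and spike centring lifts all genes, with the median of all genes at 0.29.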

How the data were processed

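The authors deposited linear intensity values, analysed in GeneSpring 6.2 per the labels' design text, which does not say how probes were summarised. The 2%-trimmed mean was 500.003 units on both arrays. Probe sets were named from the platform annotation supplied, in which 34958 had 1 symbol, 932 several and 9211 none; checked by Entrez ID against RefSeq, 204 were unmatched and 0 symbols differed. The log2 ratio of CSF1 over control was taken without further scaling, on the probe set of a gene with the highest mean log2 level. The background level came from 83 of 92 listed genes of other tissues. Called means at least 2-fold. Named were all members, up to 4 genes of each complement role by absolute ratio, up to 3 of each comparison list, and further genes chosen after their values were seen, to spell out counts or disagreement. With 2 arrays no gene was named for a like pattern. The members and lists were chosen with earlier results of these data known. No test or p-value was computed. The procedure was tested on simulated data, with planted changes larger than any ratio of the members. That test does not bear on smaller ratios. The alternatives were 4 scalings (quantile, median centring, loess with span 0.3, spike centring), 3 background settings, 2 choices of probe set, thresholds of 1.5-fold and 3-fold and, chosen after seeing the data, the mean of probe sets above background on both arrays. The motif letters of the interferon and NF-kB elements were shortened to their cores after a first search with longer forms, which matched none of the members' windows, and a composite ETS/IRF element, also without a match there, was dropped. Python 3.11.15, numpy 2.4.6, pandas 2.3.3, statsmodels 0.14.6 and matplotlib 3.10.9 were used.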

Additional observations from a re-analysis of the deposited data

How the results depend on the processing

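Over 12 alternatives, 127 of 148 recomputed values stayed within the pooled SD of 0.26 between probe sets or, for counts, within 1.5 times. Many of these could not have moved, so the tally is no measure of robustness. The members' brightest probe sets were above every background setting, and members with 1 probe set offer no other choice of probe set. Spike centring moved every member's ratio and the medians, to 0.31 for the members and 0.35 for the other complement genes, with all genes at 0.29. It put 2 members (C5ar1 and Serping1) and 1 other complement gene (C1s1) past 2-fold higher, beside 2.63% of all measured genes. With the mean of all probe sets, or of those above background on both arrays, 1 member (C5ar1) was past 2-fold higher, and with the former 1 other gene (Gnb1, which has a dim probe set) was past 2-fold lower; the shares of all genes were 0.942% and 0.57% higher and, with the former, 1.12% lower. At a 1.5-fold threshold, 2 members were higher, and of the other genes 1 was higher and 1 lower, beside 4.83% and 4.18% of all genes. With no background level, 3 of 50 other complement genes were past 2-fold higher and 12 lower, beside 9.58% and 10.6% of all genes; these are values of dim probe sets. C5ar1 stayed between 0.91 and 1.23, Serping1 between 0.74 and 1.04 and Cfb between -0.45 and -0.13, while Cfp ran from -0.20 to 0.78. No paired analysis was possible because each group has 1 array. Signals near background limit the ratios of the dim genes.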
